A study of Mus musculus with 3 samples.

Results

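Genes of DNA replication and mitosis were followed in RNA sequencing of 3 cell populations sorted from the back-skin epidermis of mice. The members are 45 genes taken by their role in the cell cycle, with earlier results of these data known. A row in the files was found for 44 of them. Cdt1, which loads the replicative helicase, was not analysed here. Of the 44, 27 act in G2 and mitosis (called G2/M genes here), 15 act at the entry to S phase or in S phase (S phase genes), and Stmn1 and Hmgb2 were not assigned to a phase. The files hold 49120 gene symbols in all, of which 11575 had a mean level of at least 1 over the libraries.

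The mice were wild-type C57BL/6 animals aged 7 weeks, in the second telogen, the resting phase of the hair cycle. Epidermal cells were sorted on the surface proteins CD34 and Itga6 into CD34-negative cells (N, called non-stem cells in the labels), CD34-positive cells with high Itga6 (B, basal bulge stem cells) and CD34-positive cells with low Itga6 (S, suprabasal bulge stem cells). The epidermis was freed with thermolysin, and each population's RNA was combined from 4 mice and amplified before sequencing, so each group is 1 library, no value has a replicate error, and no p-value can be given. N holds every CD34-negative cell of the suspension and is therefore a mixture.

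Replication and mitosis genes are switched on in turn as a cell divides. Proteins that license origins, unwind DNA and make nucleotides are produced around the G1/S transition, largely under E2F transcription factors, while cyclin B, mitotic kinases and spindle proteins are produced in G2 and M, through promoters that carry a CCAAT box and a CHR (cell cycle genes homology region) element. In resting cells the DREAM complex holds both sets low. Bulge stem cells of the hair follicle are known for dividing rarely in telogen.

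Levels are given as scaled FPKM, fragments per kilobase of transcript relative to the library's mapped fragments, after division by a factor for each library, so that they can be compared between genes as well as between libraries. The depths read from the files were 35.4 M fragments for N, 32.7 M for B and 31.2 M for S. From these depths and transcript lengths, the number of fragments behind a value was estimated, and 95% counting intervals in brackets rest on it; they leave out amplification and differences between mice. A gene is counted as lower or higher at a 2-fold difference on the scale of log2(scaled FPKM + 1), which understates differences of low genes, among genes with a mean of at least 1. Since the RNA came from whole populations, fewer dividing cells and less RNA per dividing cell cannot be told apart.

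The genes of the sort antibodies were read first: Cd34 was at 0.201 (N), 144 (B) and 215 (S), and Itga6 at 115, 49.3 and 33.1. All 6 keratinocyte markers were present in every library but differed in direction: Krt15, the most abundant, was at 1014, 1855 and 3641 in N, B and S, while Krt14 was at 588, 277 and 12.7, the order of the G2/M genes. The 7 bulge markers summed to 34.2 in N, 901 in B and 1024 in S, with Postn the most abundant (23.6, 654 and 657). The sums of the suprabasal epidermis and T cell lists fell in the order N, B, S, and those of the remaining lists did not. The 4 suprabasal epidermis markers summed to 3499, 1509 and 408, with Krtdap the most abundant (2868, 1134 and 337), while Lor rose (0.954, 1.72 and 1.81). The 8 T cell markers summed to 20.6, 6.06 and 2.14. The most abundant T cell marker was Thy1 (18.3, 4.99 and 0.673), and the other 7 were each at most 1.18 in any library, the value of Cd3e in N (chosen after its values were seen). The 9 Langerhans and myeloid markers summed to 58.9, 43.6 and 89.9 (most abundant Epcam, which keratinocytes also express, at 24.6, 21.7 and 55.9). The MHC class II genes of that list were highest in N, with H2-Aa at 13.5, 4.81 and 4.51, H2-Ab1 at 12.2, 3.30 and 2.54, and Cd74 at 6.19, 3.03 and 3.99, whereas Cd207, the Langerhans cell marker, was at most 0.343. Others of the list were highest in S: Mfge8 (0.214, 8.25 and 15.7), Cd68 (1.69, 2.11 and 6.02) and Lyz2 (0.178, 0.0816 and 0.756). The sebocyte markers summed to 49.5, 40.1 and 46.5 (Scd1 highest in N, at 23.8, and Mgst1 in S, at 36.6), the 6 melanocyte markers to 2.40, 17.6 and 35.4 with Mitf the most abundant, and the 7 fibroblast markers to 0.817, 16.0 and 28.5 with Col6a1 the most abundant. The endothelial, mast cell and red blood cell markers summed to at most 3.46 in any library (most abundant Ramp2 with 2.35 in B, Hdc with 1.05 in B and Hba-a2 with 1.91 in S). The S library also stood apart in its summed FPKM, 2.38e+06 against 765899 for N and 599014 for B. Mitochondrial transcripts held 83.5% of the S sum and nuclear protein coding genes 7.98%, against 31.4% and 31.8% in N and 36.2% and 32.7% in B. These are shares of length-scaled values and not of reads. Because the S sum was larger, its 7.98% does not show that nuclear transcripts were fewer per mapped fragment. Krt14, Lor, H2-Aa, H2-Ab1, Cd74, Cd207, Mfge8, Cd68, Lyz2, Cd3e and Scd1 were chosen after their values were seen. The part of these differences in the results below was not tested.

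The G2/M genes were low in both bulge populations and lowest in the suprabasal cells. In N, the 27 genes ranged from 0.374 to 20.99 scaled FPKM with a median of 4.52; in B the median was 0.910 and in S 0.237. All 27 were lowest in S, and 25 of the 27 were highest in N, whereas among the 11575 genes 29.7% were lowest in S and 40.4% highest in N. For Ccnb2, Cenpa and Cdca8 the order of S and B is within counting error. Their intervals for S as a percent of B were 44.8 to 143%, 50.3 to 104% and 38.3 to 123%. The median G2/M gene stood in B at 27.5% of its level in N, and in S at 6.64%.

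Of the 27 genes, 19 had a mean of at least 1, and 6 of those 19 passed only through N, with less than 1 in B and in S; a difference was thus built into their passing. Against N, 17 of the 19 were lower in B and 18 of the 19 lower in S, with 0 higher in either. Of these calls, 5 in B and 6 in S are genes that passed only through N and so had to be higher there. Over all 11575 genes, 7.1% were lower in B and 7.27% higher, and 10.9% were lower in S and 9.56% higher. The median log2 ratio of the 19 was -1.51 for B over N and -2.36 for S over N, beside -0.04 and 0.02 for all genes, and without the filter the medians of the 27 were -1.21 and -1.72. Both comparisons use the same N library.

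The 5 promoters printed here are those of the G2/M genes with a motif match and the highest levels in N (Cks2, Prc1, Ube2c), plus Top2a and Cdk1, which were added after the matches were seen because they hold several. Each line gives the 200 bases before the gene's start, 5′ to 3′ on the gene's own strand, from RefSeq on GRCm38.p6, with matches to the CCAAT box (CCAAT) and the CHR element (TTTGAA or TTCGAA) in capitals. RefSeq starts can differ from the gene positions in the files, and part of the Prc1, Ube2c and Cdk1 bases lie inside the gene's span there. A match on the other strand reads ATTGG or TTCAAA, and in Cdk1 the capitals TTTCGCGC are an E2F element. Prc1 has 2 starts, and the start with more motif bases before it is printed.
Cks2 (chr13:51645032-51645231, plus strand): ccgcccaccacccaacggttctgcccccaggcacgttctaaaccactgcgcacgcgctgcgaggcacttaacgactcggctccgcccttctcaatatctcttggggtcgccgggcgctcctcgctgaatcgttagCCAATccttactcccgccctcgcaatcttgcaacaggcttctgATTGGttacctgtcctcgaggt
Prc1 (chr7:80294276-80294475, plus strand): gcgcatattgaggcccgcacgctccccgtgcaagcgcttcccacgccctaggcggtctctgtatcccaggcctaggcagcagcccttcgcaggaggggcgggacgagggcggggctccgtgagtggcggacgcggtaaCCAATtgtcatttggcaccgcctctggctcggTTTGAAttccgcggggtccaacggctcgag
Ube2c (chr2:164769729-164769928, plus strand): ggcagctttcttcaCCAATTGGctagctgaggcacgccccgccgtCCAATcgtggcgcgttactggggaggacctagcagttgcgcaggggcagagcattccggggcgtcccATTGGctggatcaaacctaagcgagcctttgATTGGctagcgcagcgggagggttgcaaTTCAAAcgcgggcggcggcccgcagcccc
Top2a (chr11:99024190-99024389, minus strand): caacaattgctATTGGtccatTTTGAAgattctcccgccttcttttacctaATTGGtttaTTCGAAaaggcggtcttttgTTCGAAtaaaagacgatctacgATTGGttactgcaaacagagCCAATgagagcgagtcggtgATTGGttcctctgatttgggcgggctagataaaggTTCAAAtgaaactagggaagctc
Cdk1 (chr10:69352913-69353112, minus strand): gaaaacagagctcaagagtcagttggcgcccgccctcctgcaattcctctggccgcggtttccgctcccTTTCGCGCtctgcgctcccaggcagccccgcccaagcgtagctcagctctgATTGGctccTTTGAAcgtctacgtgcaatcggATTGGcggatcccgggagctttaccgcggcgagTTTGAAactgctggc

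Cyclins and their kinase drive entry into mitosis. Cdk1, the mitotic cyclin-dependent kinase (chromosome 10, 69336635 to 69352938, mm10), was at 9.05 (N), 2.17 (B) and 0.380 (S). Ccnb1, cyclin B1, was at 6.24, 1.45 and 0.414, and Ccna2, cyclin A2, at 6.47, 2.57 and 0.632 in N, B and S. All 3 stepped down from N to B and again to S. Ccnb2, cyclin B2, was at 3.65 in N and at nearby levels of 0.635 in B and 0.511 in S, where its S level was 80.5% of B (interval 44.8 to 143%). Cdca3, a trigger of mitotic entry, was at 7.31, 1.69 and 0.419.

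The anaphase-promoting complex ends mitosis by marking cyclins and securin for destruction. Ube2c, the ubiquitin-conjugating enzyme that works with it (chromosome 2, 164769898 to 164778822), was at 18.1 (N), 4.98 (B) and 0.708 (S), so that S held 3.92% of the level in N (interval 2.38 to 6.10%). This was the largest difference from N among the members on the log2 scale used here, at -3.48 for S over N. Cdc20, which activates the complex, was lower in level throughout, at 1.71, 0.818 and 0.122, and its mean stayed under 1.

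Mitotic kinases and the chromosomal passenger complex showed the same order. Plk1, polo-like kinase 1, was at 0.841 (N), 0.268 (B) and 0.0979 (S), and Aurka, the spindle pole kinase, at 1.51, 0.598 and 0.215; both had a mean under 1. Aurkb, the kinase of the passenger complex, was at 2.19, 0.386 and 0.0199. Its S value rests on about 1.12 fragments, which puts S at 0.909% of N with an interval from 0.0229 to 5.13%. Birc5, survivin, a further subunit, was at 6.83, 1.69 and 0.0981, where S rests on about 2.68 fragments and was 1.44% of N (interval 0.294 to 4.25%). Cdca8, borealin, was at 2.48, 0.848 and 0.589, a smaller difference than for its partners and short of 2-fold on the log2 scale in B (-0.91).

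Kinetochores link chromosomes to the spindle, and the checkpoint delays anaphase until all are attached. The checkpoint gene Bub1b was at 2.45 (N), 0.553 (B) and 0.291 (S), and its relative Bub1 at 0.828, 0.375 and 0.0407. Cenpa, the histone H3 variant that marks the centromere, was at 4.52, 1.73 and 1.26, and S held 27.9% of the level in N. The long coat proteins Cenpe (1.05, 0.525 and 0.0598) and Cenpf (1.34, 0.560 and 0.0948) were low in every library. Among these 5 members Cenpa had the highest levels in the bulge.

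Motor and spindle genes build the bipolar spindle and then divide the cell. Prc1, which bundles the midzone microtubules, was at 19.0 (N), 3.55 (B) and 1.16 (S), and B held 18.7% of N (interval 16.6 to 20.97%). Kif11, the motor that separates the poles, was at 3.74, 0.910 and 0.0996, and Kif23, a midzone motor, at 6.83, 1.93 and 0.170. Tpx2, a spindle assembly factor, was at 2.76, 0.625 and 0.140, and the microtubule-binding Nusap1 at 4.98, 0.721 and 0.203. Nusap1 had the lowest B level relative to N of all members, 14.5%. Kif20a, a cytokinesis motor, did not follow the order: it was at 0.374 (N), 0.412 (B) and 0.0292 (S), with B at 110% of N (interval 73.4 to 166%).

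Chromosome proteins and the Cks subunits completed the group. Top2a, the topoisomerase that untangles sister chromatids (chromosome 11, 98992943 to 99024189), was at 12.6 (N), 3.44 (B) and 0.879 (S). Mki67, which coats mitotic chromosomes and gives the Ki-67 proliferation marker (chromosome 7, 135689784 to 135716361), was at 5.87, 1.73 and 0.237, with S at 4.05% of N (interval 3.14 to 5.14%). Cks2, a small Cdk-binding subunit, was at 20.99, 5.77 and 2.55. Its paralog Cks1b, which also serves the SCF ubiquitin ligase that degrades p27, was at 17.1, 18.6 and 10.9, and did not reach 2-fold in any comparison. The 2 paralogs thus had close levels in N and differed in B, where Cks1b was at 18.6 and Cks2 at 5.77.

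**Figure D1:**
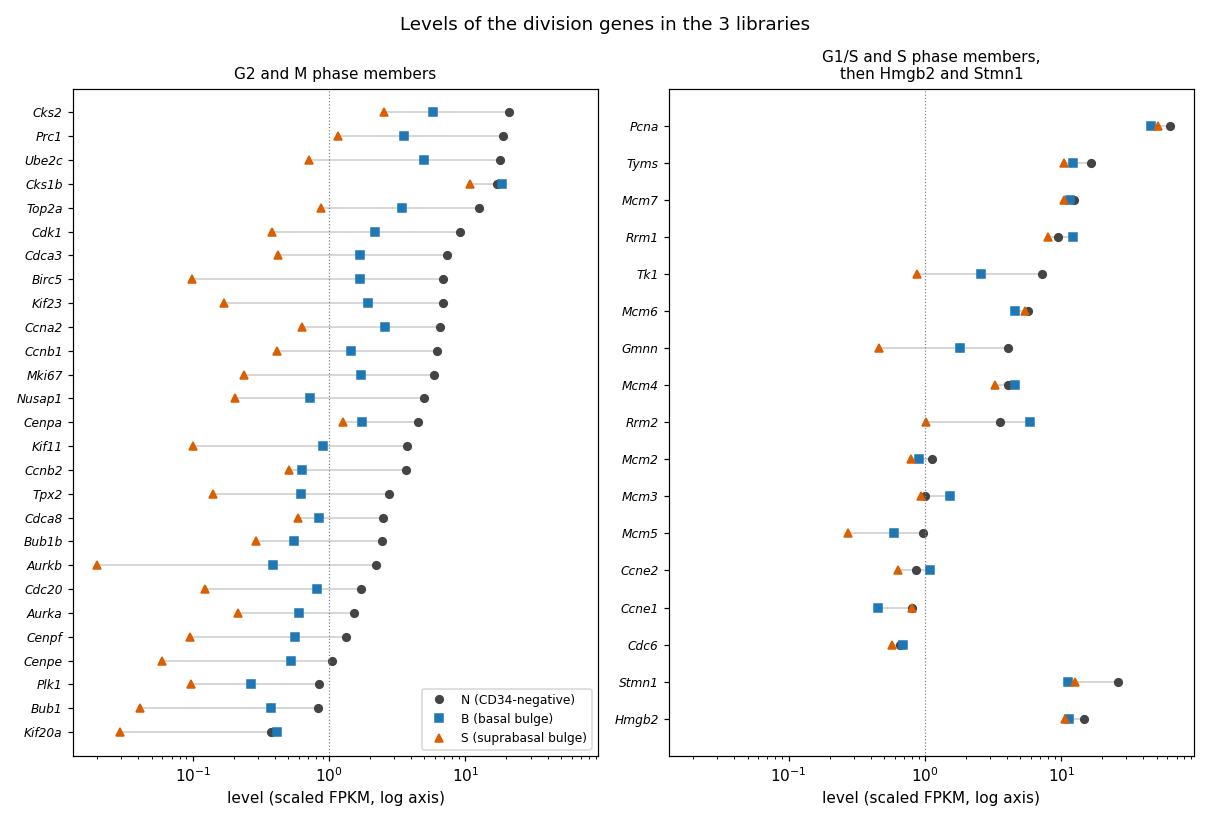
Level of each of the 44 members (scaled FPKM, log axis) in the N (circles), B (squares) and S (triangles) libraries, with G2/M genes on the left and S phase genes on the right, followed by Stmn1 and Hmgb2; the dotted line marks 1. The G2/M genes spread widely with S always lowest, while most S phase genes have the 3 symbols close together, apart from Tk1, Gmnn, Rrm2 and Mcm5.

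Most S phase genes kept similar levels in the 3 libraries. Gene by gene, the median S phase gene stood at 80.7% of N in B and 81.0% of N in S. The median level of the 15 was 4.06 in N, 2.57 in B and 0.939 in S, which compares different genes at the middle of each library. Among the 11575 genes, 40.4% were highest in N, 20.5% highest in B and 39.1% highest in S, and 29.7% were lowest in S. Of the 15 S phase genes, 9 (60%) were highest in N, 6 (40%) highest in B and 0 highest in S. Of the same 15, 12 (80%) were lowest in S, a larger share than among all genes. Of the 10 with a mean of at least 1, 1 had a lower level in B (Tk1) and 3 in S (Tk1, Gmnn and Rrm2) when set against N, with 0 higher, beside the shares of all genes given above. Their median log2 ratio was -0.18 for B over N and -0.26 for S over N, and -0.16 and -0.24 for the 15 without the filter. No test of the difference between the G2/M and S phase groups was possible with 1 library per group.

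The 4 S phase promoters printed here are those with a match and the highest levels in N (Pcna, Mcm7, Rrm1), plus Mcm6, added after the matches were seen because it holds several E2F elements. Capitals mark CCAAT boxes, CHR elements and E2F elements (TTTCCCGC, TTTGGCGC, TTTCGCGC or TTTGCCGC, or their reverse complements). In Mcm6 the run TTTGGCGCGAAA is 2 overlapping E2F matches on opposite strands. Mcm7 has 2 starts, and the start with more motif bases before it is printed. The other Mcm7 start held only a CCAAT box, 47 bases before it. The printed Mcm7 bases lie inside the gene's span in the files (138164583 to 138172422), and part of the Pcna bases lie inside that of Pcna.
Pcna (chr2:132253181-132253380, minus strand): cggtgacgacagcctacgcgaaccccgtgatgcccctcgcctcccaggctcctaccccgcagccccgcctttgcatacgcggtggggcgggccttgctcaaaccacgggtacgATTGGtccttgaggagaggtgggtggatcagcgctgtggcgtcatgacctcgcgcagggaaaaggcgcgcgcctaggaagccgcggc
Mcm7 (chr5:138171884-138172083, minus strand): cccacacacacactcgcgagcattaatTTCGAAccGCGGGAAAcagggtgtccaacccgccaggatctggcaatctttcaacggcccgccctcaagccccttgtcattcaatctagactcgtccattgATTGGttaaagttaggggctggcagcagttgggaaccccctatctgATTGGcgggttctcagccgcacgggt
Rrm1 (chr7:102441495-102441694, plus strand): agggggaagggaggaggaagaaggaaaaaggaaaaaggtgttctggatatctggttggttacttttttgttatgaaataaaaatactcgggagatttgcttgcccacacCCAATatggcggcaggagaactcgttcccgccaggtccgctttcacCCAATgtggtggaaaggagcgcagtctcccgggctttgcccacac
Mcm6 (chr1:128359706-128359905, minus strand): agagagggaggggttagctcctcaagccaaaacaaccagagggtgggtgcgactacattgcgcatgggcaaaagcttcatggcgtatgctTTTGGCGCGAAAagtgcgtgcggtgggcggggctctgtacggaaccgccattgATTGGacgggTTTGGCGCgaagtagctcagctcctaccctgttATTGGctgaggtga

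The Mcm2 to Mcm7 proteins form the ring helicase that is loaded at origins in G1 and unwinds DNA in S phase. Mcm7 was at 12.4 (N), 11.5 (B) and 10.4 (S), and Mcm6 at 5.68, 4.58 and 5.42. Mcm4 was at 4.06, 4.60 and 3.29, with S at 81.0% of N (interval 70.6 to 92.8%). The other 3 subunits were near or under 1: Mcm2 at 1.12, 0.901 and 0.796, Mcm3 at 0.997, 1.54 and 0.939, and Mcm5 at 0.961, 0.595 and 0.272. Mcm5 was the subunit with the lowest S level relative to N, 28.3% (interval 17.96 to 43.2%).

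The remaining licensing and G1/S members had low levels except geminin. Cdc6, a helicase loader, was at 0.653 (N), 0.690 (B) and 0.573 (S). Ccne1, cyclin E1, was at 0.807, 0.452 and 0.806, and Ccne2, cyclin E2, at 0.860, 1.08 and 0.636, so that the paralogs had opposite orders in B against the other libraries. Gmnn, geminin, the inhibitor of Cdt1 that accumulates from S phase to mitosis, was at 4.08, 1.80 and 0.460, a steep decline like that of the G2/M genes.

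The sliding clamp and the nucleotide enzymes separated into flat and steep genes. Pcna, the clamp of DNA polymerase, which also serves repair (chromosome 2, 132249162 to 132253314), was the most abundant member, at 62.3 (N), 45.1 (B) and 50.9 (S). Tyms, thymidylate synthase, was at 16.4, 12.2 and 10.4. Rrm1, the large subunit of ribonucleotide reductase, was at 9.45, 12.2 and 7.98. Its small subunit Rrm2, the S phase partner (chromosome 12, 24708241 to 24714146), was at 3.54, 5.90 and 1.01: B was 167% of N (interval 143 to 194%), and S was 17.2% of B (interval 13.0 to 22.4%). Rrm2 had the highest B over N ratio of the members that passed the filter, at 0.60 on the log2 scale, which is short of 2-fold. Tk1, thymidine kinase, went with the G2/M genes, at 7.26, 2.57 and 0.879.

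The genes without a phase differed less between B and S than from N. Stmn1, a microtubule-destabilizing protein, was at 26.3 (N), 11.2 (B) and 12.6 (S), 2-fold lower than N in B (log2 ratio of -1.16) and just short of 2-fold in S. Hmgb2, a chromatin protein of the high mobility group, was at 14.7, 11.4 and 10.6.

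**Figure D2:**
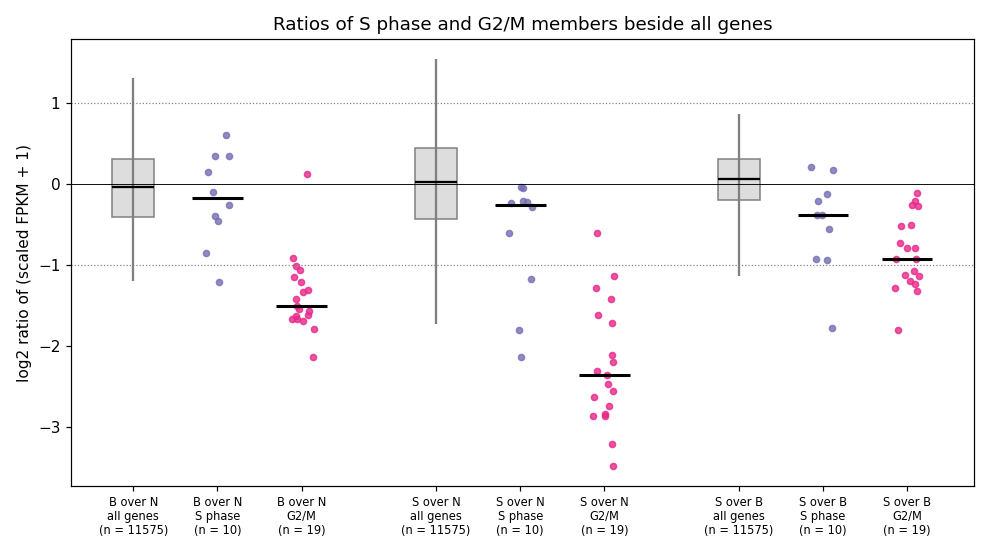
Log2 ratio of scaled FPKM plus 1 for B over N, S over N and S over B. Boxes give the quartiles and vertical lines the 5th to 95th percentile of the 11575 genes, points are the 10 S phase and 19 G2/M genes with a mean of at least 1, thick bars their medians, and dotted lines 2-fold; the G2/M medians (-1.51, -2.36 and -0.92) lie below those of the S phase genes (-0.18, -0.26 and -0.39) in each comparison.

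Between the bulge layers, the G2/M genes were lower in the suprabasal cells. Of the 19 with a mean of at least 1, 8 were lower in S than in B and 0 higher: Top2a, Mki67, Ube2c, Ccna2, Cdk1, Birc5, Kif23 and Prc1. Of the 10 S phase genes, Rrm2 alone was lower and 0 were higher. Over all genes, 5.93% were lower in S than in B and 3.89% higher. The median log2 ratio was -0.92 for the G2/M genes and -0.39 for the S phase genes, beside 0.06 for all genes. Mki67 in S was 13.7% of its level in B (interval 10.5 to 17.7%) and Cdk1 17.5% (interval 12.6 to 23.8%), while Pcna was at 113% (interval 106 to 120%). In S, 6 members rested on fewer than 10 fragments (Cdc20, Plk1, Aurkb, Birc5, Bub1 and Kif20a), against 0 in N and 0 in B. With a pseudocount of 0.1 in place of 1, which compresses low genes less, 17 members in place of 9 were lower in S than in B, and with a mean of at least 5, which leaves 12 members, 3 were.

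The rest of the division machinery was read from lists of genes that are not members. Of 25 spindle and cytokinesis genes 12 had a mean of at least 1, and against N 6 of those had lower levels in B and 9 in S, with 0 higher. Of these calls, 2 in B and 3 in S are genes that passed only through N and so had to be higher there. Anln, the cytokinesis scaffold anillin, was at 10.5 (N), 2.40 (B) and 0.187 (S), and Ect2, which activates RhoA at the cleavage site, at 5.86, 1.54 and 0.705. Of 37 kinetochore and checkpoint genes 17 had such a mean, and 3 of those were lower in B and 6 in S, among them Nuf2 (2.91, 0.649 and 0.0267) of the Ndc80 complex and the checkpoint gene Mad2l1 (7.60, 2.34 and 1.85). Here 2 of the 3 calls in B and 3 of the 6 in S, Nuf2 among them, are genes that passed only through N. The median log2 ratio of the kinetochore list was -0.22 for B and -0.38 for S, and that of the spindle list -1.01 and -1.53. Without the filter the lists were closer to each other, at -0.50 and -0.72 for the kinetochore list and -0.59 and -0.75 for the spindle list.

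Of 35 further replication genes with a mean of at least 1, 1 was lower in B and 5 in S against N, while 2 were higher in B and 2 in S. These shares, 2.86% and 14.3% lower and 5.71% higher in each, lie near those of all genes (7.1% and 10.9% lower, 7.27% and 9.56% higher). The lower gene in B was Uhrf1, which couples DNA methylation to replication and passed only through N, at 4.85 (N), 0.610 (B) and 0.288 (S). Rfc2, a clamp loader subunit, was higher in both bulge libraries (2.39, 7.75 and 8.61), as were Pold1 in B (0.796 and 2.67 in N and B), the catalytic subunit of polymerase delta, and Pole2 in S (3.08 and 9.86 in N and S), a subunit of polymerase epsilon. The list's medians of -0.08 and -0.04 were those of all genes to within 0.1. Of 16 measured condensin and cohesin genes, 2 were lower in B and 1 in S: Ncapd2 in both (5.28, 0.689 and 1.07) and Smc2 in B (6.13, 1.85 and 3.11). Of 16 anaphase-promoting complex genes, the inhibitor Fbxo5 alone was lower (6.13, 1.30 and 2.09), in B and in S. The condensin and cohesin shares of 12.5% and 6.25%, and the 6.25% of the anaphase-promoting complex list, are likewise near the background.

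The counts in this paragraph stand beside 7.1% of all genes lower in B than in N and 7.27% higher. For S the shares of all genes were 10.9% lower and 9.56% higher. Among 6 measured regulators of mitotic entry, 3 were lower in B (Cdc25a, Wee1 and Cdkn3) and 2 in S (Wee1 and Cdkn3). Of these, Cdkn3 passed only through N. The kinase gene Wee1 was at 20.6 (N), 7.41 (B) and 6.86 (S). Of 16 measured cell cycle transcription factors, Mybl1 alone was lower in both (6.66, 0.929 and 1.31), a share of 6.25% that does not exceed that of all genes. Foxm1, the activator of G2/M genes, was chosen after its values were seen and had a mean under 1, at 1.61, 0.302 and 0.202. Of 11 measured D cyclins, G1 kinases and CDK inhibitors, 3 were lower and 0 higher in B, and 3 were lower and 3 higher in S. The lower genes in B were Ccnd2, Cdk6 and the inhibitor Cdkn2d (11.96, 5.11 and 7.61). The lower genes in S were Ccnd1 (8.86, 6.15 and 0.806), Ccnd2 (22.0, 7.01 and 1.02) and Cdk6 (13.3, 5.75 and 1.79), which start the cycle in G1, while Ccnd3 went the other way (3.68, 7.37 and 6.36) without reaching 2-fold. The higher genes in S were all inhibitors: Cdkn1b, which encodes p27 (9.25, 11.4 and 25.5), Cdkn1c, which encodes p57 (0.369, 1.62 and 2.04), and Cdkn2b (0.796, 0.463 and 3.17), which passed only through S. Not all inhibitors rose: Cdkn2d was below N in S as well, and Cdkn2c was below N in both (2.14, 1.24 and 1.13), short of 2-fold. Ccnd3, Cdkn1b, Cdkn1c and Cdkn2c were chosen after their values were seen.

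**Figure D3:**
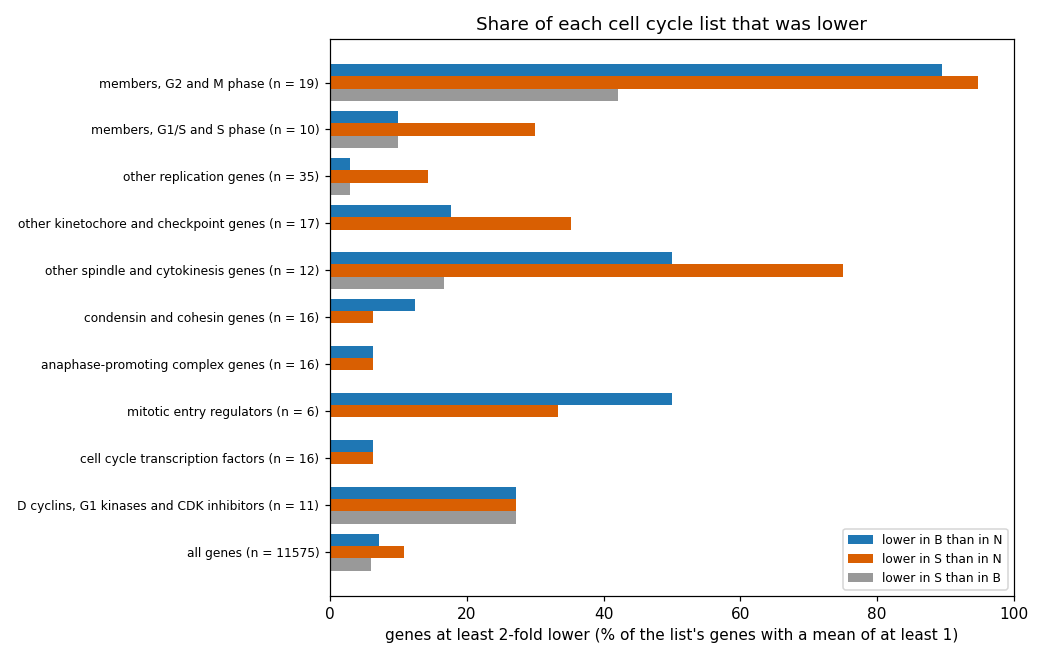
Percent of each list's genes with a mean of at least 1 (n in brackets) that were at least 2-fold lower in B than in N, in S than in N and in S than in B, with all genes at the bottom. G2/M members (17, 18 and 8 of 19) and other spindle and cytokinesis genes (6, 9 and 2 of 12) have the longest bars for S against N, and the replication list (1, 5 and 1 of 35) lies near all genes.

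The promoters of the G2/M and S phase genes differed in the motifs they held. RefSeq promoters (250 bases before to 50 after the start, GRCm38.p6) were found for 37 of the 45 listed genes. They are 23 G2/M genes, 13 S phase genes, Cdt1 included, and Hmgb2. Of the 39 promoters of these genes, 28 had the first 20 bases after the start in a GENCODE transcript of the gene, so some starts are less certain. A CHR element (TTTGAA or TTCGAA, both strands) was in 18 of 23 G2/M promoters (78.3%) and 2 of 13 S phase promoters (15.4%), beside 16.2% of the 7887 protein coding genes with a mean of at least 1 and 21.7% of all 27025 genes in the table. An E2F element was in 1 of 23 G2/M promoters, that of Cdk1, and in 6 of 13 S phase promoters (46.2%), beside 4.82% and 2.61%. The 6 were Mcm3, Mcm5, Mcm6, Mcm7, Cdc6 and Cdt1. A gene with 2 starts counted if either window held the motif, and the E2F and CHR elements of Mcm7 were in 1 of its 2 windows. A CCAAT box was in 21 of 23 and 8 of 13, beside 42.7% and 41.1%.

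The spacing of the matches was looked at after the matches were seen. A CHR element that began 20 to 40 bases downstream of the first base of a CCAAT box, as in the printed Prc1, Ube2c, Top2a and Cdk1 promoters, was in 11 of 23 G2/M promoters (47.8%) and 0 of 13 S phase promoters, beside 1.15% of the protein coding genes with a mean of at least 1. In Ube2c the CHR element began 29 bases before the start and the CCAAT box 57, in Top2a 23 and 58, and in Cdk1 15 and 48. Cks1b, which did not reach 2-fold, held CHR elements and CCAAT boxes, and Rrm2 held a CCAAT box alone. No motif searched was found in the windows of Birc5, Nusap1, Ccne1, Tk1 and Tyms, which says only that these letters are absent there. The matches are a description of letters and not of factor binding.

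**Figure D4:**
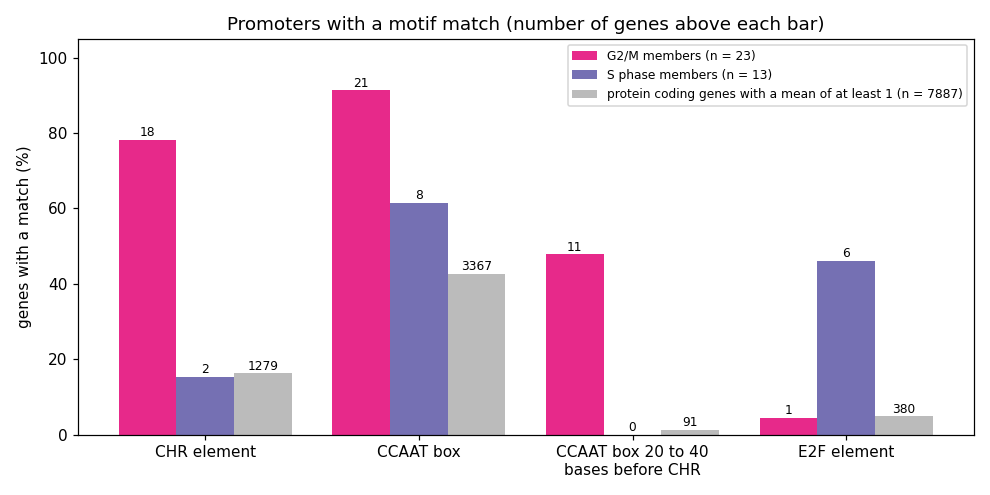
Percent of genes whose promoter (250 bases before to 50 after the start) holds each motif, for 23 G2/M members, 13 S phase members and 7887 protein coding genes with a mean of at least 1; numbers above the bars are genes. The CHR element and the spaced pair are mostly in G2/M promoters (18 and 11 of 23), the E2F element mostly in S phase promoters (6 of 13).

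**Figure D5:**
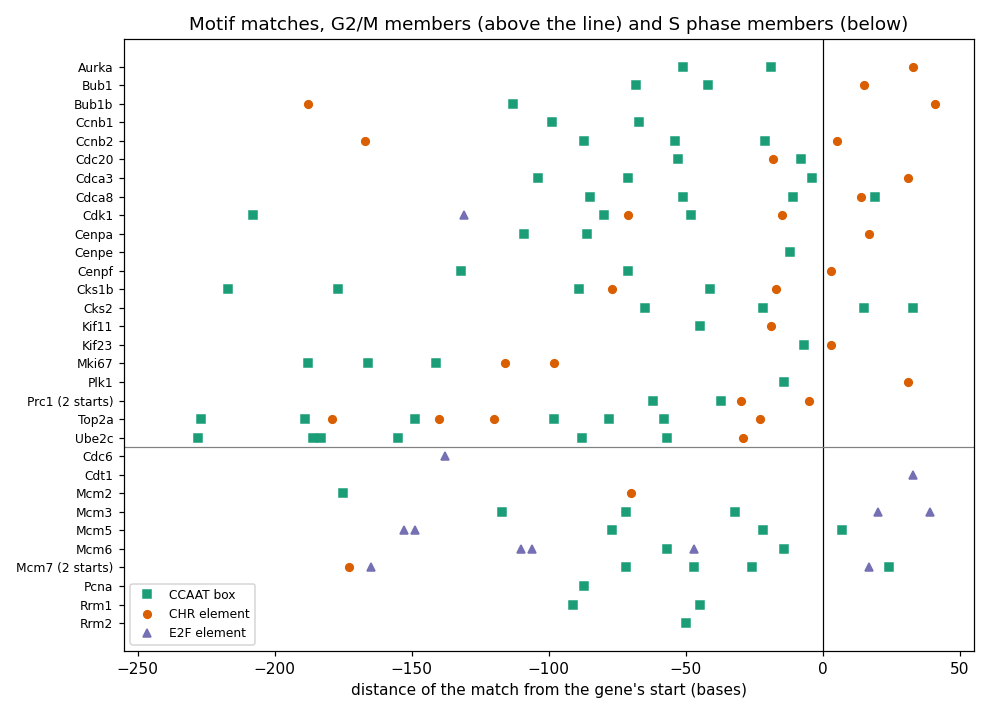
First base of each motif match (bases from the gene's start, on the gene's strand) in the 21 G2/M and 10 S phase promoters with a match; genes with 2 starts have the matches of both on 1 line. CCAAT boxes (squares) lie before the start in most G2/M promoters, with CHR elements (circles) nearer to the start or just after it.

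The scaling of the libraries moved all genes and the members together. With the values as deposited the median of all genes shifted to -0.18 for both B over N and S over N, with 9.46% lower and 6.19% higher in B and 14.5% lower and 7.39% higher in S; then 20 members in place of 19 were lower in B and 22 in place of 21 in S. The S phase medians shifted likewise, to -0.33 for B over N and -0.50 for S over N, and the G2/M medians to -1.63 and -2.51. With the nuclear protein coding genes set to the same total, the counts were 17 and 21.

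Some members share sequence or genome positions with other genes. In the files' positions, 10 members overlap a protein coding gene on the opposite strand, and whether the counting used strand is not given in the sources used here. In N the neighbour had a higher level than the member for Cdc20 (Elovl1 at 42.6), Kif20a (Cdc23 at 14.5), Mcm7 (Cops6 at 38.4) and Ccne2 (Ints8 at 8.60). In S this also held for Ccna2 (Exosc9 at 3.51), Cdca8 (9930104L06Rik at 1.93) and Prc1 (Rccd1 at 1.63), and the values of these 7 members are less certain. Pcna, Ccnb1, Ccnb2 and Cks1b have processed copies in the genome, and reads may have been split between copies.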

How the data were processed

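The authors deposited 1 file of FPKM values per gene for each library; per the file headers the unit is FPKM for N and S, and for B it was taken from the values. The submitters' processing notes name TopHat2 2.0.12, Cufflinks 2.1.1, DESeq2 and mm10, with no role; which annotation was used is not stated there. Of 49452 rows, 49195 received a symbol (gene name table, GENCODE M21), and rows of 1 symbol were summed. Each library was scaled by a median-of-ratios factor (N 1.10, B 0.981, S 0.923) from the 18559 genes detected in all 3. Log2 ratios used a pseudocount of 1 and genes whose mean reached 1. Single-exon genes of 3000 bp or more gave the depth, since their low values differ by whole fragments; 90.4% to 91.4% of values under 10 fragments lay within 0.1 of a whole number. Fragments per member used the GENCODE transcript with the longest coding sequence; they are estimates, since Cufflinks' effective lengths are unknown. Intervals are exact (Poisson counts, binomial for ratios). The size rule was tested on simulated data. Python 3.11.15, pandas 2.3.3 and scipy 1.17.1 were used. Alternatives were another pseudocount, other filters, 3 other scalings and other fold limits. The members, lists and rules were chosen with earlier results of these data known. Named genes are the members, up to 3 genes per other list and comparison with the largest log2 ratio, the most abundant gene of each marker list and the sort genes; others, including overlapping neighbours, were chosen after their values were seen.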

Additional observations from a re-analysis of the deposited data

How the results depend on the processing

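Of 48 counts of members lower or higher under the alternatives, 40 were within 1.5 times of the value reported. That total includes counts of higher members, reported as 0, which mostly set 0 against 0 and say little. The counts of lower members were within the limit in 6 of 8 alternatives for B against N. For S against N this held in 7 of 8, and for S against B in only 4 of 8. The values reported are 19 members lower for B against N, 21 for S against N and 9 for S against B. With a mean of at least 5, which leaves 12 members, they were 5, 4 and 3, since fewer genes were tested. With a 3-fold limit, 7 were lower for B against N and 2 for S against B. With a 1.5-fold limit, 16 were lower for S against B and 1, Rrm2, was higher for B against N. With a pseudocount of 0.1, 17 were lower in S than in B. The 3 other scalings gave 17 to 20, 21 to 22 and 9 to 10. Over the alternatives the G2/M median ranged from -1.93 to -1.21 for B over N, from -3.70 to -1.72 for S over N and from -1.60 to -0.70 for S over B, and that of the S phase genes from -0.33 to -0.05, from -0.50 to -0.17 and from -0.54 to -0.13. No paired analysis was possible because each group has 1 library, and no library could be left out. Depth limits the 6 members with fewer than 10 fragments in S.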

Other observations

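Of the protein coding genes that overlap a member on the opposite strand, 3 are named here, chosen after their values were seen. Oip5, a centromere loading gene that overlaps Nusap1, was at 2.01 (N), 0.656 (B) and 0.181 (S), and Rccd1, which overlaps Prc1, at 5.22, 2.66 and 1.63. Exosc9, which overlaps Ccna2 and encodes a subunit of the RNA exosome, was at 5.02, 3.81 and 3.51. Whether reads of the members enter these values was not tested.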
